A study of Mus musculus with 4 samples.

Results

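The measurements concern 7 mouse genes of the acute-phase response and the complement system, Saa3, Lcn2, C3, C4b, Hp, Serpina3n and Serping1, out of the 16051 genes in the deposited table. They were found by their symbols, and they had been selected with the difference between risperidone and control libraries already known. Their differences between treatments are therefore given as a description, without a test. The cells were differentiated 3T3-L1, a line of NIH SWISS mouse embryo fibroblasts that forms adipocytes in culture, and had been differentiated with isobutyl-methylxanthine, dexamethasone and insulin. One group received 100 μM risperidone, an atypical antipsychotic, for 48 h. The other group is labelled as untreated, and the methods name its treatment as the vehicle DMSO for the same time. Each group had 2 libraries of total RNA, and each library pooled the RNA of 3 cultures, so variation from one culture to the next was averaged out before sequencing. The study was designed around the promotion of lipid storage by risperidone in these cells. The labels also carry an embryonic tissue and a retinal extraction that do not describe a cell line.

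The acute-phase response is the change in secreted proteins that follows infection or injury. Interleukin-1, tumour necrosis factor and cytokines of the interleukin-6 family reach the cell through their receptors, and C/EBP, NF-kB and STAT3 carry the signal to the genes. Complement is a chain of secreted proteases that meets at C3, whose cleavage marks surfaces and starts inflammation. The liver is the main source of these proteins, and adipocytes and fibroblasts also make them.

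The 4 libraries held between 15883712 and 16374119 counts, and a count of 0 allows up to 3 counts, or 0.183 to 0.189 CPM (counts scaled to the library total), for counting error only. Adipocyte-defining transcripts were close to 0. Adipoq had 1, 0, 1 and 1 counts in control replicates 1 and 2 and risperidone replicates 1 and 2, and Cidec had 0, 1, 0 and 2. The 4 adipocyte markers high enough to be tested were Fabp4, Plin4, Lpl and Pparg. Fabp4, Plin4 and Lpl were lower with risperidone (log2 fold change -1.09, -0.75 and -0.24, edgeR adjusted p = 1.64e-05, 1.07e-05 and 0.00154), and Pparg, with 345 to 388 counts, was not called. The summed level of the 12 adipocyte markers was 874 and 976 TPM, a share of all transcripts that sums to 1000000, in the controls and 525 and 578 TPM with risperidone. That of 10 fibroblast markers was 4332 to 4626 TPM, a sum over opposite changes, since Dlk1, Thy1 and Col1a1 were called higher (edgeR, adjusted p under 0.05, log2 fold change 1.52, 1.05 and 0.99) and Col3a1, Pdgfrb and Col1a2 lower (-0.96, -0.50 and -0.16). The hepatocyte list (10 of 12 markers in the table) summed to at most 4.49 TPM and the macrophage list (9 of 12) to 10.1 to 14.9 TPM. The macrophage genes went different ways, with 48, 62, 115 and 120 counts of Cd68 (called higher), 64, 69, 0 and 1 of Fcgr1, and at most 8 counts in any library of each of the other 7. The neutrophil list (4 of 8) summed to 21.4 and 29.7 TPM in the controls and 5.36 and 5.83 TPM with risperidone, and only S100a8, which encodes an alarmin, was high enough to be tested. Kidney epithelial markers summed to 3.89 to 5.49 TPM in 3 libraries and to 373 TPM in risperidone replicate 2. In such bulk samples, fewer cells of a type and less RNA per cell cannot be told apart.

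Upstream sequences are shown first for the genes whose transcripts were lower, since the named factors act through such elements. The 250 bases before each annotated transcript start were searched on both strands for TTGCNNAA (C/EBP), TTCNNNGAA (STAT) and GGGNNTTTC (a simplified NF-kB element), and the 3 patterns do not contain each other. Of the 4 selected genes with an entry in the RefSeq promoter table (build GRCm38.p6), 3 held the C/EBP letters, Serpina3n held the NF-kB letters and none held the STAT letters. Among all 8329 tested genes with an entry, 8.87% held the C/EBP, 6.88% the STAT and 4.3% the NF-kB letters in any promoter. Counted by promoter, the shares were 7.42%, 5.66% and 3.56% of the 10639 promoters of tested genes. They were 9.56%, 7.02% and 3.72% of all 32851 promoters. The capitals mark the match, and each sequence is written 5′ to 3′ on the strand of the gene. The C3 and Saa3 windows lie at chr17:57228148-57228207 and chr7:46715742-46715801 on the minus strand, with the first base of the match at -45 and -99 from the start. The Lcn2 stretch lies at chr2:32387937-32387966 on the minus strand, its match at -216, and the Serpina3n window lies at chr12:104406511-104406571 on the plus strand, its match at -171. In GENCODE vM21 the Lcn2 stretch overlaps an annotated exon and the other 3 windows lie between annotated genes. The annotations differ for Saa3, since its window lies inside the longer span that RefSeq gives the gene.
C3: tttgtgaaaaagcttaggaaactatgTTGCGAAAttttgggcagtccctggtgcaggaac
Saa3: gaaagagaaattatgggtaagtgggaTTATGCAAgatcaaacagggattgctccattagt
Lcn2: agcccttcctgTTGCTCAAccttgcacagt
Serpina3n: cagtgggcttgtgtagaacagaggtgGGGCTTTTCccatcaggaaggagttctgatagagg

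Relatives of Saa3 and other acute-phase genes carried the same letters. Of 19 further tested genes of the acute-phase and complement lists with an entry, 9 held the C/EBP letters (C1rb, C1s1, Cp, Orm2, Orm3, Ptx3, Saa1, Saa2 and Steap4). C1s1 was among them although its transcripts were higher with risperidone. The STAT letters were in 3 (C1rb, Lrp1 and Steap4) and the NF-kB letters in 2 (Il1rn and Steap4). The stretches below show the paralogs at chr7:46743144-46743173 (Saa1, minus strand), chr7:46751639-46751668 (Saa2, plus strand), chr4:63362318-63362347 (Orm2, plus strand) and chr4:63356026-63356055 (Orm3, plus strand), and Steap4 at chr5:7960374-7960403 (plus strand), all between annotated genes in GENCODE, although the Saa1 stretch lies inside the span that RefSeq gives Saa1. Saa1 and Saa2 differed at 1 of 30 bases, and Orm2 and Orm3 at 4. Orm1 had no entry in the RefSeq promoter table.
Saa1: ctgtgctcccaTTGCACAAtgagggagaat
Saa2: ctgtgctcccaTTGCACAAtgagggaaaat
Orm2: gagagaacattTTGCGCAAgacatttccca
Orm3: gagggaacattTTGCACAAgacatttatca
Steap4: cacagctcctcTTGCGAAAtcaagcgggcc

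**Figure D1:**
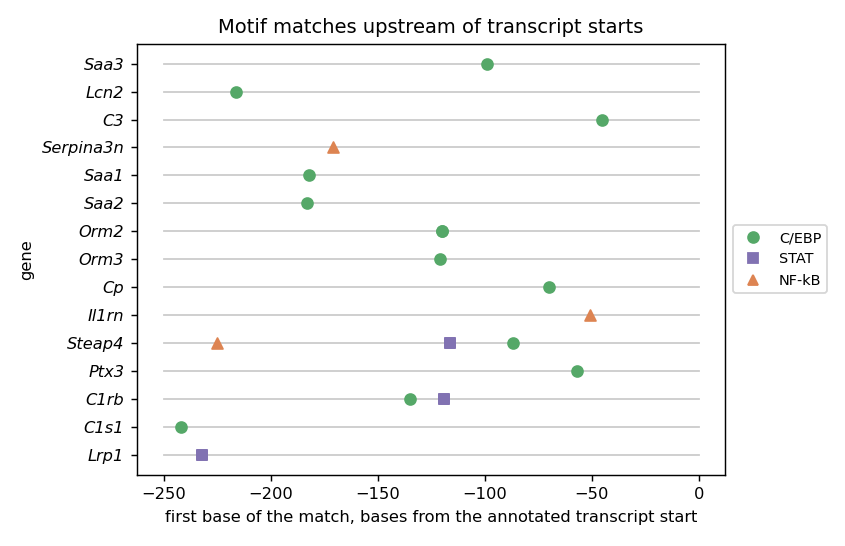
Position of each letter match (first base, in bases before the annotated transcript start) in the 250 bases upstream of the 4 selected genes and of the other acute-phase and complement genes that held any match. The C/EBP matches of C3, Saa3 and Lcn2 sit at -45, -99 and -216, and those of the paralog pairs Saa1 and Saa2 (-182 and -183) and Orm2 and Orm3 (-120 and -121) nearly coincide.

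Of the 7 genes, 5 had a mean of at least 1 FPKM, a count scaled to transcript length and depth, over the 4 libraries, the level set for testing. All 5 were lower in both risperidone libraries than in both controls by FPKM, as were 49.8% of all 10243 genes tested, and 4 of them had a log2 fold change of -1 or below, whereas C4b and Serping1 were at or near 0. Over all genes tested, 3.93% had a log2 fold change of -1 or below and 32.2% were called lower (edgeR, quasi-likelihood test, Benjamini-Hochberg adjusted p under 0.05). Because the genes were selected on this contrast, nothing is read from their count beside these shares. Their median log2 fold change was -1.47, and that of all genes tested was 0.00. Together they supplied 15337 and 16021 TPM in the control libraries and 4484 and 4892 TPM with risperidone.

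Saa3 encodes a serum amyloid A protein that is made outside the liver, by adipocytes and macrophages among other cells, and circulates with lipoproteins. Its gene lies at chr7:46711998-46719615 (NCBI Gene 20210). It had 5944 and 6529 counts in control replicates 1 and 2, and 962 and 893 in risperidone replicates 1 and 2. Its level was 975 ± 81.9 FPKM in the controls and 143 ± 7.33 FPKM with risperidone (SD, n = 2 each). The fold change of Saa3 was the greatest of the 5, at -2.66 on the log2 scale (standard error 0.0681), or 6.3-fold lower with risperidone. By TPM it was gene 70 and 56 of the control libraries and gene 477 and 504 of the risperidone libraries.

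Lcn2 encodes lipocalin 2, a secreted protein that withholds iron from bacteria by binding their siderophores and is also an adipokine. It lies at chr2:32384637-32387739 (NCBI Gene 16819). It had 41197 and 41784 counts in the controls and 13543 and 14449 with risperidone. In FPKM these were 3580 ± 105 and 1200 ± 62.8 (SD, n = 2 each). Lcn2 had the highest FPKM of the 7 genes in every library. It ranked 6 by TPM in both controls and 83 and 69 in the risperidone libraries. Its log2 fold change was -1.47 (standard error 0.0544).

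C3, at chr17:57203967-57228136 (NCBI Gene 12266), encodes the central component of complement, from which the acylation-stimulating C3adesArg fragment of adipose tissue also derives. It had 217950 and 214237 counts in the controls, more than any other gene of the table in these libraries. With risperidone it had 77971 and 82183 counts, which placed it at 10 and 8. Its level was 2935 ± 85.5 FPKM in the controls and 1122 ± 31.8 FPKM with risperidone (SD, n = 2 each), a log2 fold change of -1.34 (standard error 0.0498).

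The ratio of count to FPKM is proportional to the transcript length that the authors' quantification used, and it moves when the balance of isoforms moves. After scaling to the 2 controls, this relative length of C3 was 1.016 and 0.984 in the controls and 0.957 and 0.984 in the risperidone libraries. Over 2608 genes with at least 1000 counts and 20 FPKM in every library, 5% of the values lay under 0.989 and 5% over 1.013. The C3 values spread beyond that range within the controls already, and risperidone replicate 2 equalled control replicate 2. For Saa3 the risperidone values were 1.007 and 1.020, and those of Lcn2, Hp and Serpina3n lay between 1.004 and 1.011. A gene length offset uses a single length per gene for all libraries, so it cannot address a change of isoforms. With it, the log2 fold change of C3 was -1.24. By the deposited FPKM, where the length can differ between libraries, it was -1.39.

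Hp, at chr8:109575128-109579172 (NCBI Gene 15439), encodes haptoglobin, which binds free haemoglobin in plasma. It had 1594 and 1771 counts in the controls and 561 and 514 with risperidone. The levels were 86.2 ± 8.16 and 27.4 ± 1.45 FPKM (SD, n = 2 each), a log2 fold change of -1.55 (standard error 0.08). The 2 libraries of a group differed by 13.4% of their mean in the controls and by 7.47% with risperidone.

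Serpina3n, at chr12:104406646-104414334 (NCBI Gene 20716), encodes a secreted inhibitor of serine proteases. Its estimated counts were 838.62 and 933.55 in the controls and 501.06 and 502.98 with risperidone. These were not whole numbers, since reads had been divided among near-identical genes of the Serpina3 cluster, and the values are uncertain to that extent. In FPKM the levels were 28.2 ± 2.72 and 15.9 ± 0.212 (SD, n = 2 each). The log2 fold change of -0.73 (standard error 0.0735) was the smallest of the 5 and the only one that did not reach -1. Under 16 other ways of processing, the log2 fold changes kept their sign and ran from -3.04 to -2.57 for Saa3, -1.79 to -1.42 for Lcn2, -1.67 to -1.24 for C3, -1.77 to -1.46 for Hp and -0.94 to -0.63 for Serpina3n.

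**Figure D2:**
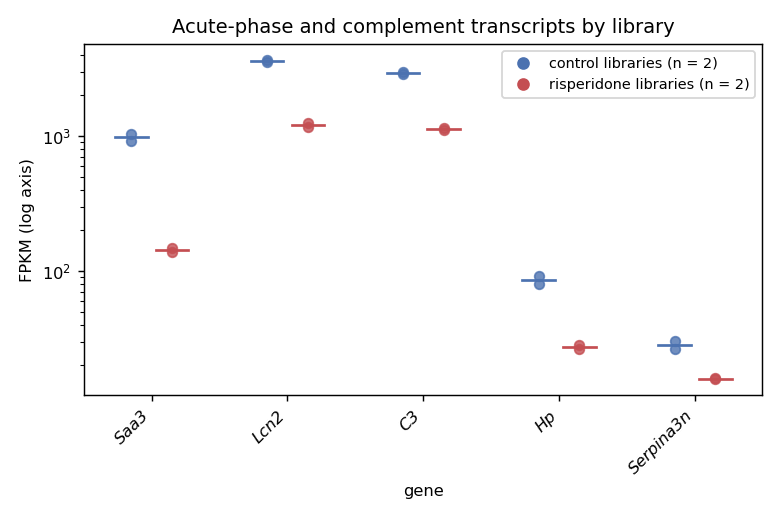
FPKM (log axis) of the 5 selected genes that were tested, with 1 point for each library and a line at the mean of the 2 libraries of a group. Both risperidone points lie under both control points for every gene, and the gap is widest for Saa3 (975 against 143 FPKM) and narrowest for Serpina3n (28.2 against 15.9 FPKM).

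Serping1 and C4b were hardly detected. Serping1, at chr2:84765360-84775444 (NCBI Gene 12258), encodes the C1 inhibitor, which stops the first proteases of the classical pathway. It had 1 and 0 counts in the controls and 1 and 9 with risperidone, the highest being in the library that also held kidney transcripts. C4b, at chr17:34728139-34743902 (NCBI Gene 12268), encodes a component of the classical and lectin pathways. It had 0 and 1 counts in the controls and 0 and 3.23 with risperidone, and its near-identical neighbour C4a had 14, 16, 13 and 10.77. Differences of this size were not detectable at this depth, and no fold change is given for either gene.

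To place these genes among the rest of the response, the other members of the acute-phase and complement lists were examined. The lists held 67 further genes of the table, 26 of which were tested. Of these 26, 21 were lower and 3 higher with risperidone at an adjusted p under 0.05 (edgeR, quasi-likelihood, adjusted over all 10243 genes), and their median log2 fold change was -0.70. Of the 23 that averaged 1 FPKM or more in both groups, 18 were lower, and the median was -0.44. The share of all tested genes was 32.2% for lower and 32.1% for higher. The lists were drawn up with earlier results of these data known, so their counts are no independent evidence of a direction.

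All 8 serum amyloids and other acute-phase proteins that averaged 1 FPKM or more in both groups were lower, with a median log2 fold change of -1.09. Of all genes tested, 32.2% were lower. Steap4, Il1rn and Saa2 reached the level for testing through the controls only, so they had to be lower to be counted. With these 3 included the median was -1.42, and their p-values below come from the fit without a filter. Their fold changes and standard errors come from the fit with the filter. Steap4, a metalloreductase of adipocytes, had 300 and 321 counts in the controls and 15 and 15 with risperidone, and it fell by 4.27 on the log2 scale (standard error 0.18, edgeR adjusted p = 0.000258 without a filter). Il1rn, the natural antagonist of the interleukin-1 receptor, had 93 and 79 counts against 6 and 3 (log2 fold change -4.13, standard error 0.337, edgeR adjusted p = 0.000804 without a filter). Both genes were thus nearly lost from the risperidone libraries. With 1 library left out at a time, the log2 fold change of Il1rn ran from -4.69 (without risperidone replicate 1) to -3.73 (without risperidone replicate 2), and with limma, where a pseudocount is added, it was as small as -1.43 (that of Steap4 -2.42). Cp, which encodes the copper-carrying ferroxidase ceruloplasmin, was far more abundant, with 11838 and 11494 counts against 3011 and 3295 (log2 fold change -1.79, standard error 0.0564, edgeR adjusted p = 5.12e-09). Lbp and Cd14, which pass bacterial lipopolysaccharide on to its receptor, changed less, by -0.79 (edgeR adjusted p = 0.00212) and -0.35 (edgeR adjusted p = 0.00959) on the log2 scale. The call for Cd14 was lost without control replicate 2 (adjusted p = 0.177) and with DESeq2 (adjusted p = 0.06). Ptx3, a pentraxin that binds C1q, had a log2 fold change of -0.36 (edgeR adjusted p = 0.000664). Lrg1, a leucine-rich glycoprotein of the acute phase, lay under the level set for testing with 36, 36, 2 and 4 counts. Tested without that limit, it gave a log2 fold change of -3.44 (edgeR adjusted p = 0.003). Itih3, which encodes a heavy chain of the inter-alpha-trypsin inhibitors, also lay under that level and pointed the other way, with 8 and 6 counts against 13 and 17 (log2 fold change 1.18), and was not called (edgeR adjusted p = 0.124).

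The relatives of Saa3 were lower as well, at much lower levels. Saa1 and Saa2, whose proteins are the inducible serum amyloids of the liver, lie near Saa3 on chromosome 7. Saa1 had 67 and 78 counts in the controls and 22 and 23 with risperidone (log2 fold change -1.59, standard error 0.242, edgeR adjusted p = 0.000171). Saa2 had 24 and 30 against 2 and 4 (log2 fold change -3.03, standard error 0.479, edgeR adjusted p = 0.00718 without a filter). With so few counts, the log2 fold change of Saa2 ran from -3.59 without risperidone replicate 2 to -2.62 without risperidone replicate 1, and was as small as -1.64 with limma. In the controls the FPKM of Saa3 (917.32 and 1033.21) stood beside 8.4 and 8.72 for Saa1 and 3.09 and 3.69 for Saa2, so nearly all serum amyloid A message was Saa3.

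The 3 orosomucoid genes, which encode carrier proteins of the lipocalin fold, did not move equally. Orm3 had 1855 and 2114 counts in the controls and 684 and 702 with risperidone, and fell by 1.42 on the log2 scale (edgeR adjusted p = 1.34e-07). Orm2 had 505 and 550 against 185 and 193, a log2 fold change of -1.39 (edgeR adjusted p = 3.42e-07). Orm1 had 514 and 515 against 385 and 343, a log2 fold change of only -0.41 (standard error 0.0716, edgeR adjusted p = 0.000499). Orm1 and Orm2 were thus alike in the controls and apart with risperidone, although the difference between their fold changes was not tested.

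**Figure D3:**
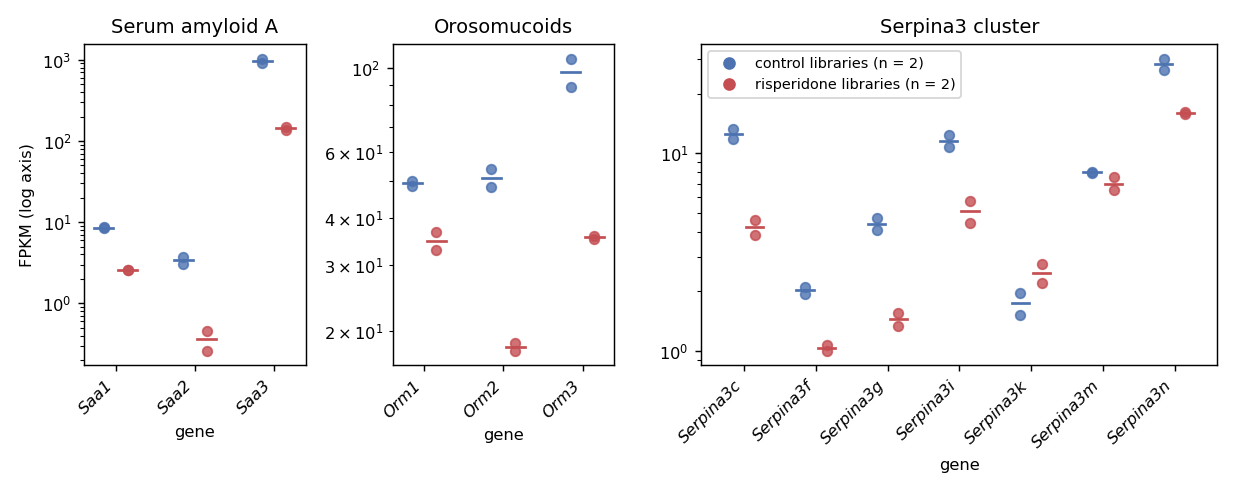
FPKM (log axis) of the serum amyloid A genes, the orosomucoid genes and the tested genes of the Serpina3 cluster, with 1 point for each library and a line at the mean of the 2 libraries of a group. Saa3 stands about 2 powers of 10 above Saa1 and Saa2, Orm1 separates less than Orm2 and Orm3, and Serpina3k is the one gene whose risperidone points lie above its control points.

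Complement genes were mixed before C3 and lower among the regulators. Of 6 tested genes of the classical and lectin pathways, 4 were lower and 2 higher, beside 32.2% and 32.1% of all genes tested. Masp1, a protease of the lectin pathway, had 524 and 539 counts against 279 and 255 (log2 fold change -0.90, standard error 0.0762, edgeR adjusted p = 2.4e-06). Colec12, a scavenger receptor with a collectin head, had a log2 fold change of -0.44 (edgeR adjusted p = 3.32e-05). C1ra and C1rb, paralogs of the protease C1r, had log2 fold changes of -0.29 and -0.24 (edgeR adjusted p = 0.000697 and 0.00867). C1s1 and C1s2, paralogs of its partner C1s, were higher, by 0.43 and 0.48 on the log2 scale (edgeR adjusted p = 0.000197 and 0.00388). The counts of all 4 were not whole, since reads were divided between the paralogs. With limma on log2(TPM + 1), where test and scale both differed, the increases of C1s1 and C1s2 were 0.19 and 0.22 and lost their calls. C1r and C1s, which act in the same complex, thus had opposite signs.

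In the alternative pathway, Cfp, which encodes the stabilising factor properdin, had 83 and 93 counts against 41 and 39 (log2 fold change -1.04, edgeR adjusted p = 0.001). Cfb, the protease subunit of the C3 convertase, had 19, 23, 6 and 54 counts, with the lowest value in risperidone replicate 1 and the highest in risperidone replicate 2, the library with kidney transcripts. Cfd, which encodes adipsin, a hallmark of mature adipocytes, had 0, 0, 1 and 5 counts, the 5 in the same library. C8g of the membrane attack complex had 24 and 36 counts against 27 and 37, with overlapping groups.

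All 5 tested complement regulators were lower, beside 32.2% of all genes tested. The membrane regulators Cd59a and Cd55, which guard cells against the attack complex and the convertases, had log2 fold changes of -1.32 (edgeR adjusted p = 1.67e-05) and -0.70 (edgeR adjusted p = 0.00283). Cr1l, another membrane regulator, had -0.26 (edgeR adjusted p = 0.00201). Clu, the chaperone clusterin, had 128 and 107 counts against 32 and 73 (log2 fold change -1.06, edgeR adjusted p = 0.00861). Its value was -1.78 without risperidone replicate 2 and -0.59 without risperidone replicate 1, and its call was lost when no gene was filtered (adjusted p = 0.0731). The part that the kidney transcripts of that library had in the higher count was not tested. Among receptors, C1qbp, a mitochondrial protein that also binds C1q, was higher (1015 and 935 counts against 1629 and 1671, log2 fold change 0.85, edgeR adjusted p = 5.43e-07). Lrp1, an endocytic receptor, had a log2 fold change of 0.05 and overlapping groups.

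**Figure D4:**
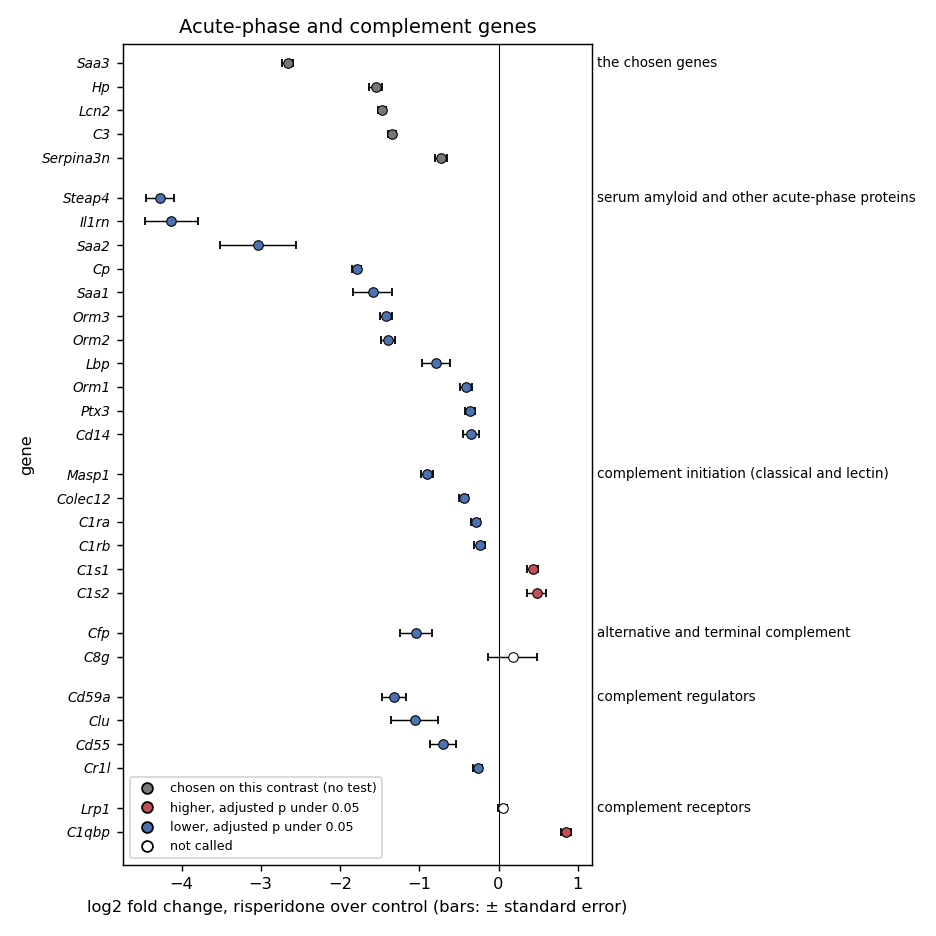
Log2 fold change of risperidone over control with its standard error (2 libraries a group) for the 5 selected genes, shown without a test in grey, and 25 of the 26 other tested acute-phase and complement genes by role. All 11 acute-phase proteins and the 4 regulators drawn lie left of 0, and the 3 genes called higher are C1s1, C1s2 and C1qbp. Of the acute-phase proteins, Saa2, Il1rn and Steap4 reached the level for testing through the controls only, so they had to lie left of 0.

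Serpins other than Serpina3n were mixed in direction. Of this family 14 were tested, of which 7 were higher, 4 lower and 3 not called (32.1% and 32.2% of all genes tested were higher and lower), with a median log2 fold change of 0.07. Within the Serpina3 cluster on chromosome 12, the neighbours of Serpina3n, 4 were lower. Serpina3g had estimated counts of 121.42 and 135.91 against 46.21 and 39.16 (log2 fold change -1.50, edgeR adjusted p = 4.93e-05). Serpina3c had 339 and 293 against 98 and 115 (log2 fold change -1.47, edgeR adjusted p = 4.38e-06), and Serpina3i and Serpina3f had log2 fold changes of -1.19 and -0.87 (edgeR adjusted p = 3.74e-05 and 0.00604). Serpina3m was not called, with a log2 fold change of -0.09 (edgeR adjusted p = 0.546). Serpina3k had 37.77 and 47.39 against 67.81 and 53.82, and its call (log2 fold change 0.61, edgeR adjusted p = 0.0399) was lost under 8 alternatives, those without control replicate 1 (adjusted p = 0.248) and without risperidone replicate 1 (adjusted p = 0.175) among them. Reads shared within the cluster make the split between these paralogs uncertain, except for Serpina3c, whose counts were whole.

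Of the 4 lower neighbours, Serpina3g and Serpina3i held the NF-kB letters like Serpina3n, Serpina3f held the C/EBP and STAT letters only, and Serpina3c held none of the 3 patterns. Serpina3k and Serpina3m, the tested neighbours that were not called lower, had no entry in the RefSeq promoter table. The lower neighbours could thus not be compared with them. Serpina3g and Serpina3i each held an NF-kB match, at chr12:104236051-104236080 and chr12:104262957-104262986 (plus strand, between annotated genes), and each held a STAT match further on. The stretches of Serpina3g and Serpina3i differed at 6 of 30 bases, and those of Serpina3n and Serpina3i at 10.
Serpina3g: tagaactgttaGGGGGTTTCcgaacaggaa
Serpina3i: tagaacagtaaGGGGTTTTCccagcaggga

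Of the 8 tested serpins outside that cluster, 6 were called higher, and Serpinb9 and Serpinf1 were not called (log2 fold change -0.14 and -0.01). Of all genes tested, 32.1% were called higher. The call of Serpinh1 (log2 fold change 0.14) was lost in most alternatives, and its sign reversed with limma on log2(TPM + 1). Serpinb9b, an intracellular serpin, had 27 and 34 counts in the controls and 74 and 85 with risperidone (log2 fold change 1.47, edgeR adjusted p = 0.000214). Serpine2, an inhibitor of thrombin, had 31 and 47 against 68 and 67 (log2 fold change 0.88, edgeR adjusted p = 0.00899), a call that was lost without control replicate 1 (adjusted p = 0.112). Of the lipocalin list, Orm1 and Orm2 were the 2 called among those above the level for testing, and the lipocalin 2 receptor Slc22a17 was not (log2 fold change -0.23, edgeR adjusted p = 0.179). Ptgds, a prostaglandin D synthase of the lipocalin fold, lay under that level with 1 and 1 counts against 14 and 7 and was higher without a filter (edgeR adjusted p = 0.0258), as was the serpin Serpinb1b with 2 and 2 against 8 and 11 (edgeR adjusted p = 0.0483). Among genes that handle haemoglobin and haem beside haptoglobin, Hmox1, the inducible haem oxygenase, had 7653 and 7949 counts against 3514 and 3316 (log2 fold change -1.10, edgeR adjusted p = 5.78e-08). Blvrb, which reduces biliverdin further along the same path, was higher, with 309 and 330 counts against 595 and 545 (log2 fold change 0.93, edgeR adjusted p = 1.42e-06).

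The inputs of the acute-phase response were examined next. Most ligands were scarce. Il6 had 4, 6, 5 and 5 counts in the order given above, and Lif had 9, 4, 0 and 2. Clcf1, a cytokine of the interleukin-6 family, was the 1 ligand tested and was higher, with 227 and 245 counts against 381 and 337 (log2 fold change 0.70, edgeR adjusted p = 0.000123).

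Of 16 receptors and adaptors, 11 were lower, 2 higher and 3 not called, beside 32.2% lower and 32.1% higher over all genes tested, with a median log2 fold change of -0.38. Tlr2, a receptor for bacterial lipoproteins, had 772 and 786 counts against 166 and 199 (log2 fold change -2.00, standard error 0.0829, edgeR adjusted p = 2.45e-08). Myd88, the adaptor of Toll-like and interleukin-1 receptors, had 704 and 703 against 259 and 250 (log2 fold change -1.37, edgeR adjusted p = 4.86e-08). Osmr, the oncostatin M receptor, had 4155 and 3848 against 1412 and 1571 (log2 fold change -1.33, edgeR adjusted p = 3.79e-08). Il6ra and Lifr, which bind interleukin-6 and leukaemia inhibitory factor, had log2 fold changes of -0.75 and -0.57 (edgeR adjusted p = 7.8e-06 and 9.86e-06). Their shared signalling chain Il6st was higher by 0.27 (edgeR adjusted p = 0.000522), as was Il1r1 by 0.38 (edgeR adjusted p = 0.000104). With limma on log2(TPM + 1) these increases were 0.04 and 0.14, and neither call held. The calls of Ifngr2 and Il17ra were lost in 8 of 16 and 7 of 15 alternatives.

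Of 17 transcription factors and feedback genes, 10 were lower and 7 were not called, or 9 of 16 lower without Nfkbie, beside 32.2% of all genes tested. Nfkbie and Nfkb1, an NF-kB inhibitor and an NF-kB subunit, had log2 fold changes of -1.72 (edgeR adjusted p = 0.014 without a filter, since Nfkbie too reached 1 FPKM in the controls only) and -0.84 (edgeR adjusted p = 3.1e-07). Leaving out 1 library at a time, the value of Nfkbie ran from -2.23 (without risperidone replicate 2) to -1.34 (without risperidone replicate 1). Irf1, an interferon-regulated factor, had 582 and 577 counts against 253 and 289 (2-fold lower, edgeR adjusted p = 1.26e-06). Stat3 had 4367 and 4198 against 3136 and 2953 (log2 fold change -0.40, edgeR adjusted p = 2.8e-05), and its feedback inhibitor Socs3 had 200 and 191 against 104 and 96 (log2 fold change -0.87, edgeR adjusted p = 0.000242). Changes of the C/EBP factors were small. Cebpd had a log2 fold change of -0.27 (edgeR adjusted p = 0.00607), while Cebpb, with 2294 and 2267 counts against 2147 and 1578, was not called (log2 fold change -0.20, edgeR adjusted p = 0.11). Rela and Nfkbia were not called either, with overlapping groups.

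Glucocorticoids act together with cytokines on several acute-phase genes, and the culture had contained dexamethasone. Apart from Lcn2, 8 glucocorticoid-responsive genes were tested, of which 4 were lower and 4 higher. Over all genes tested, 32.2% were lower and 32.1% higher. Dusp1, a phosphatase of stress kinases, had 952 and 936 counts against 134 and 173 (log2 fold change -2.53, standard error 0.0902, edgeR adjusted p = 1.11e-08). The metallothioneins Mt1 and Mt2 had log2 fold changes of -1.14 and -1.02 (edgeR adjusted p = 4.36e-08 and 8.93e-08). Klf9 and Sgk1 rose by 0.70 and 0.63 on the log2 scale (edgeR adjusted p = 1.78e-06 and 0.000243). Zbtb16, another target, lay under the level for testing with 65 and 53 counts against 124 and 99 and was higher without a filter (edgeR adjusted p = 0.009). The receptor Nr3c1 had a log2 fold change of -0.42 (edgeR adjusted p = 6.33e-05).

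**Figure D5:**
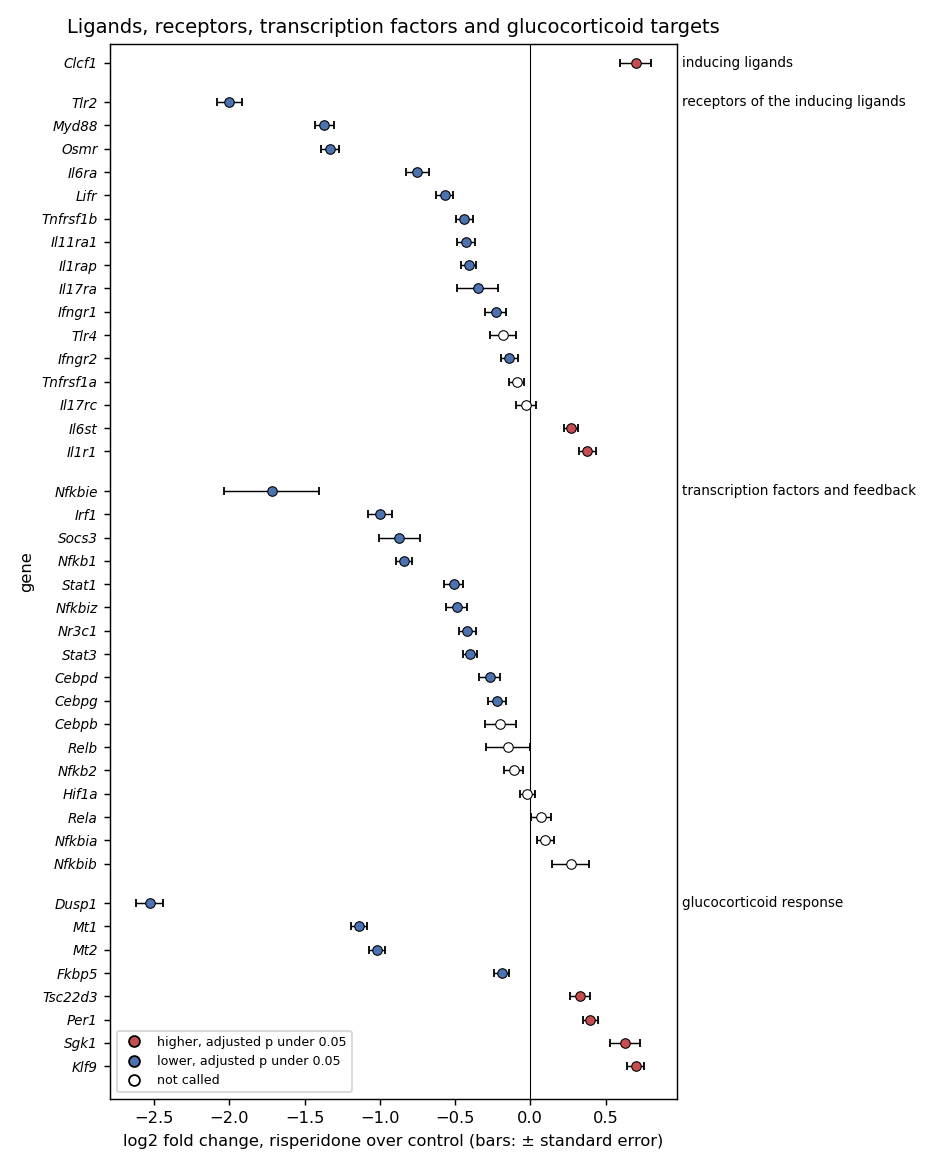
Log2 fold change of risperidone over control with its standard error (2 libraries a group) for the tested ligand, receptors, transcription factors and feedback genes, and glucocorticoid-responsive genes. Tlr2 (-2.00), Nfkbie (-1.72) and Dusp1 (-2.53) lie furthest left in their groups, and the glucocorticoid-responsive genes split into 4 on either side of 0. Nfkbie reached the level for testing through the controls only.

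To find genes with similar profiles, the log2 CPM of each selected gene over the 4 libraries, centred on its own mean, was compared with that of the 8052 genes that averaged 5 FPKM or more. With 4 libraries in 2 groups, the distance mostly reflects the size of the difference between treatments. Nearest to Saa3 was Gas1, a growth arrest gene, with 99.83 and 107.86 FPKM in the controls and 13.78 and 16.12 FPKM with risperidone, at a Euclidean distance of 0.23. Lcn2 was nearest to Rgs2 (distance 0.034) and C3 to Ier3 (0.0463). Hp was nearest to Hilpda (0.121), which encodes a protein of lipid droplets, and Serpina3n to Pros1 (0.0372), which encodes protein S. Saa3 thus had a more distant neighbour than the other 4.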

How the data were processed

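mRNA sequencing of 2 control and 2 risperidone libraries was analysed. Per the methods, libraries were sequenced on MGISEQ and the reads were cleaned by the authors. The submitters' processing notes name Bowtie2, RSEM, DESeq2 and build GRCm38.p6, without versions. The authors deposited an estimated count (expected count), FPKM and TPM for each gene and library, and columns of group averages, which were not used. The deposited FPKM values are scaled to depth and gene length, and the deposited TPM values sum to 1000000 in each library. Between 91.2% and 91.7% of the estimated counts in a library were exactly whole. Depth and the limit that a count of 0 allows are given in the report.

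After rounding of the counts, the 10243 genes averaging 1 FPKM or more were compared with edgeR 4.0.16 in R 4.3.3 (TMM, quasi-likelihood F-test, two-sided, Benjamini-Hochberg adjustment over these genes, threshold 0.05, without a replicate term). The biological coefficient of variation was 0.0468. P-values measure only the spread between these libraries. Standard errors belong to the log2 fold change of risperidone over control, and were derived from its size and the F statistic. The procedure was tested on simulated counts. The selected genes and all gene lists were chosen with earlier results of these data known. All 7 were named. Of each list, called genes were named first by absolute log2 fold change, up to 6, any tested gene could be added, and genes under the filter were named from 10 counts in a library; Cfd, Il6 and Lif, and the marker genes, were chosen after their values were seen. Promoters came from RefSeq and exons from GENCODE vM21. Alternatives were no filter, a mean of at least 5 FPKM, a replicate block, each library left out, RLE or library size scaling, a gene length offset, DESeq2 1.42.0, and limma 3.58.1 on log2(FPKM + 1), log2(FPKM + 0.1), log2(TPM + 1) and quantile-normalized values. Some genes of the lists are counted but not reported here by name.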

Additional observations from a re-analysis of the deposited data

How the results depend on the processing

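Of 69 called genes of the lists, 53 kept their direction and call under every alternative that gave them a value (16, or 15 for the 15 genes averaging under 5 FPKM that 1 alternative leaves out), 16 lost the call in at least 1, and 1 of these reversed (Serpinh1, -0.10 with limma on TPM). Limma on log2(TPM + 1), which changes test and scale together, moved the median over all genes to -0.22 (log2) and the share of higher genes among calls from 49.9% to 22.5%, and values under it are relative to that shift. Library size alone gave 37.9% and limma on FPKM 37.8% to 37.9%. With limma on TPM, 1 of the other acute-phase and complement genes was higher in place of 3, 5 and 14 of the serpin, lipocalin and haptoglobin-related genes were higher and lower in place of 8 and 7, 3 of the inducing pathway genes were higher in place of 7, and the median of the 5 selected genes was -1.72. That median was -1.67 after quantile normalization and between -1.59 and -1.42 under the other alternatives. A mean of at least 5 FPKM left 4 higher serpin, lipocalin and haptoglobin-related genes, since 3 were no longer tested and Serpinh1 lost its call, and leaving out each library in turn gave 5 to 7, the 5 without control replicate 1. The cause of the other changes was not tested.

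A replicate block gave 3292 higher and 3321 lower genes over the table in place of 3287 and 3303, and 7 higher serpin, lipocalin and haptoglobin-related genes. It ended the calls of Serpinh1 and Ifngr2 only. The replicate numbers share only a number, since deviations of same-numbered libraries correlated at -0.105. The crossed pairing, added after the data were seen, gave 3474 higher and 3519 lower genes. At this depth, Serping1 and C4b could not be compared.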
